A study of Mus musculus with 14 samples.

Results

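The transcripts of the receptor chains that bind interferons, and of the Janus kinases attached to them, were followed in 3 mouse tumour cell lines given a RIG-I agonist. The 9 genes are Ifnar1, Ifnar2, Ifngr1, Ifngr2, Ifnlr1, Il10rb, Jak1, Jak2 and Tyk2, chosen by name, and they were found among the 34866 gene identifiers of each count table through the Ensembl identifier without its version. All 9 had 1 identifier each, and 8 passed the filter on low counts in every line, the exception being Ifnlr1.

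CT26 is a BALB/c colorectal carcinoma line, E0771 a C57BL/6 mammary carcinoma line and MC38 a C57BL/6 colon adenocarcinoma line. Each was plated at 100000 cells per well and given 0.5 ug/ml of RIG-I agonist or of control agonist for 24 h, in RPMI for CT26 and E0771 and in DMEM for MC38, each with 10% fetal bovine serum. The 3 CT26 libraries of each agonist held 32826537 to 40563960 estimated counts. The 2 E0771 libraries of each agonist held 12413267 to 13399165, and the 2 of MC38 held 12347241 to 18964432. Every change is relative to the control agonist, since no untreated cells were analysed. Whether replicates were separate cultures is not labelled. A p-value from the fits here sets a difference against the spread of replicate libraries, estimated in part across genes. That spread may be only technical. The epithelial marker Epcam had no counts in CT26 or MC38 and 2 in E0771, where the keratin gene Krt8 was at 250 CPM (counts relative to library size, with library sizes scaled by the TMM method) and Krt18 and Krt19 had no counts. In MC38 the 5 epithelial markers summed to at most 0.614 CPM. The 8 leukocyte markers summed to at most 1.04 CPM in CT26, 9.58 in E0771, nearly all of it Lyz2, and 3.38 in MC38. The 4 fibroblast markers summed to 134 to 178 CPM in CT26 controls and to 106 to 116 after RIG-I agonist. The sums were 133 to 210 and 101 to 129 CPM in E0771, and 69.6 to 70.1 and 45.8 to 48.0 in MC38, with Pdgfra and Col1a1 lower in CT26 and MC38 and no counts of Dcn or Lum in E0771. The 4 endothelial markers reached at most 3.37, 13.8 and 16.2 CPM, and Kdr rose in CT26 from 1 count to 108. Krt18 fell in CT26, from 22.7 ± 2.38 to 16.3 ± 1.13 CPM. The part of these shifts in the results below was not tested. In any such culture, fewer cells of a kind and less RNA per cell cannot be told apart.

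Type I interferons, such as interferon alpha and beta, bind a receptor of the chains IFNAR1 and IFNAR2, which carry the kinases TYK2 and JAK1. Interferon gamma binds IFNGR1, with JAK1, and IFNGR2, with JAK2. Interferon lambda binds IFNLR1 paired with IL10RB, a chain that also serves the receptors of interleukin 10 and interleukin 22. Once the chains are brought together the kinases phosphorylate one another, the receptor tails and the STAT transcription factors, which enter the nucleus and switch on interferon-stimulated genes.

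The genes of 4 receptor chains form a cluster on chromosome 16 of GRCm38, all on the plus strand: Ifnar2 at 91372783 to 91405589, Il10rb at 91406164 to 91425834, Ifnar1 at 91485238 to 91507441 and Ifngr2 at 91547072 to 91565623. The cluster spans 192841 bases, and only 574 bases lie between Ifnar2 and Il10rb. Ifngr1 lies apart on chromosome 10 (19591949 to 19610229, plus strand) and Ifnlr1 on chromosome 4 (135686287 to 135708181, plus strand). Of the kinases, Jak1 is on chromosome 4 (101152367 to 101265282, minus strand), Jak2 on chromosome 19 (29251828 to 29313080, plus strand) and Tyk2 on chromosome 9 (21104068 to 21131243, minus strand). Gm21970, a gene model that overlaps Ifnar2 and Il10rb on the same strand and could share their reads, held at most 40 counts in a CT26 library, 18 in E0771 and 4 in MC38. Raver2, which meets the end of Jak1 on the other strand, held at most 4 counts in any library.

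The sequences upstream of 4 of these genes are shown: Ifnar1 and Ifnar2, the partners of 1 receptor, because they held the only motif matches among the promoters searched here for these genes, and Ifngr2 and Jak2, which act at the same chain, because they had the largest fold changes. Ifngr1, called lower in MC38, is not shown and held no match. Each is the 250 bases before the RefSeq start on GRCm38.p6, read 5′ to 3′ on the gene's strand (all plus). Capitals mark matches to TTCNNNGAA, the letters of a gamma-activated site to which STAT dimers can bind.
Ifnar1, chr16:91484965-91485214: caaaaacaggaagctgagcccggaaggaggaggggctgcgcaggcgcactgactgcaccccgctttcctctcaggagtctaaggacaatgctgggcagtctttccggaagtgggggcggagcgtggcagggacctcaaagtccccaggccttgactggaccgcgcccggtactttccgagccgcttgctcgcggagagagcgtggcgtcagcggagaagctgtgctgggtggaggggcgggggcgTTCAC
Ifnar2, chr16:91372533-91372782: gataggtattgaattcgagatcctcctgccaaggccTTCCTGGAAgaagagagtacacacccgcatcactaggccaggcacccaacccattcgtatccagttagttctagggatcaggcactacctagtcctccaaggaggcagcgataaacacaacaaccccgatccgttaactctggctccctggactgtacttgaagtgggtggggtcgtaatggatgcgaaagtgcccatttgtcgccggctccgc
Ifngr2, chr16:91546809-91547058: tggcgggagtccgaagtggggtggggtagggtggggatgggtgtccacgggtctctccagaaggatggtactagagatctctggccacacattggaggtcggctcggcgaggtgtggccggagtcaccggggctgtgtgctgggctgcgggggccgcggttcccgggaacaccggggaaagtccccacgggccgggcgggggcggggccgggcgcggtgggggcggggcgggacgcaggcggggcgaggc
Jak2, chr19:29251553-29251802: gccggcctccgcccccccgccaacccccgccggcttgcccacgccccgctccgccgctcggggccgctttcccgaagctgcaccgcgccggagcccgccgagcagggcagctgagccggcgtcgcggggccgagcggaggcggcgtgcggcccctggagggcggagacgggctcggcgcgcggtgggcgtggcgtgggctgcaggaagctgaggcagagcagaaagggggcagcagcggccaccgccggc

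Promoters of 8 of the 9 genes were in the RefSeq table, all but Il10rb. Both strands of the 300-base windows, from 250 bases before to 50 after the start, were searched for TTCNNNGAA and for the core of the interferon-stimulated response element, which is GAAA, any 2 bases and GAAA again. Ifnar2 had the match TTCCTGGAA at 91372569 to 91372577, and Ifnar1 had TTCACGGAA at 91485210 to 91485218, which begins 5 bases before the start and runs past it, so that its last bases lie outside the run printed above. TTCNNNGAA was found in 8.30% of all 32851 promoter windows. No window of the 8 genes held the response element core, which 3.44% of all windows held. The 250 upstream bases had a GC content of 54.0% in Ifnar2, 65.6% in Ifnar1, 74.0% in Ifngr2 and 80.8% in Jak2, against a median of 52.4% over all promoters.

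In cells given the control agonist, Jak1, the kinase common to the type I, II and III receptors, had the highest level per kilobase of the 9 genes in all 3 lines. It stood at 15.7 ± 1.20 CPM per kilobase of merged exon length in CT26 (SD, n = 3), 33.6 ± 0.179 in E0771 (n = 2) and 26.8 ± 0.572 in MC38 (n = 2). Ifngr1, the ligand-binding chain for interferon gamma, was the second highest in E0771 (10.1 ± 1.20 CPM per kilobase) and in MC38 (14.4 ± 0.0583). In CT26 it was at 9.77 ± 1.05, a range that overlapped that of Jak2 (10.3 ± 0.541).

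The other genes of CT26 followed in the order Ifnar2 (7.64 ± 0.493 CPM per kilobase), Ifnar1 (6.73 ± 0.110), Ifngr2 (5.41 ± 0.0927), Il10rb (4.08 ± 0.334) and Tyk2 (2.50 ± 0.206), with no overlap between neighbours. In E0771 the order was Ifnar1 (7.35), Ifnar2 (6.65), Ifngr2 (5.51), Tyk2 (4.0), Il10rb (3.27) and Jak2 (2.81). In MC38 it was Jak2 (7.49), Ifnar1 (6.20), Il10rb (5.70), Ifnar2 (5.28), Ifngr2 (3.71) and Tyk2 (2.25). Neighbours in these orders did not overlap either, but with only 2 libraries each. With the longest transcript as the length, Jak1 stayed first in every line. Ifnar1 then stood above Ifnar2 in CT26 (10.2 and 8.34 CPM per kilobase). Ifngr1 stood above Jak2 in CT26 (13.2 and 10.3) and Ifnar1 above Jak2 in MC38 (9.43 and 7.49). The means of Tyk2 and Ifngr2 in E0771, Il10rb and Ifngr2 in CT26, and Il10rb and Jak2 in MC38 also changed order. With that length, the libraries of each of these last pairs overlapped. The order of all these pairs thus rests on the length used.

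**Figure D1:**
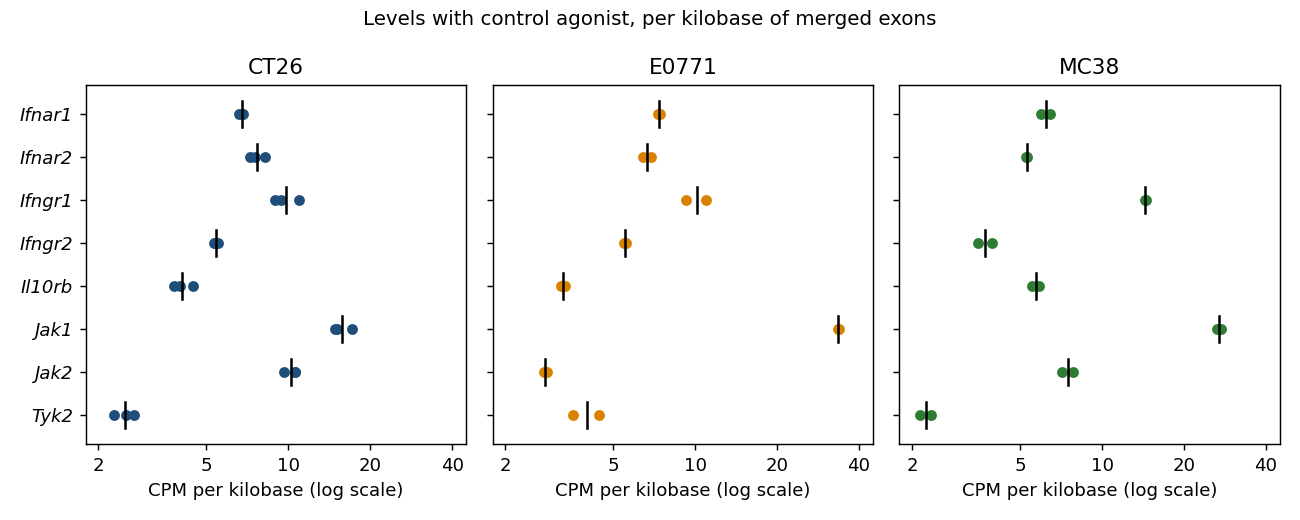
Levels with control agonist in each line, in CPM per kilobase of merged exon length on a log axis. Each point is a library (3 in CT26, 2 in E0771 and in MC38) and each black bar a group mean. Jak1 lies farthest right in all 3 lines, and Jak2 moves from near 10.3 in CT26 to 2.81 in E0771.

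Ifnlr1, the chain specific to the interferon lambda receptor, was not detected in CT26 or E0771. None of the 6 CT26 and 4 E0771 libraries held a count, which allows up to 0.0740 to 0.0914 CPM per library in CT26 and 0.224 to 0.242 in E0771 (3 counts, counting error only). In MC38, control replicate 1 and RIG-I replicate 1 held 1 count each and the other libraries none. The interferon lambda genes themselves were near the same floor: with the RIG-I agonist CT26 held 14 counts of Ifnl2 and 13 of Ifnl3 over 3 libraries, from 0 with control agonist, and E0771 held 1 of each. Il10ra, the partner of IL10RB in the interleukin 10 receptor, had no counts in any library, and Il22ra1, its partner for interleukin 22, reached 20 counts over the MC38 RIG-I libraries, from 9 with control agonist.

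Between lines, the largest gaps with control agonist were those of the kinase genes Jak2 and Jak1. The widest gap of Tyk2 (E0771 minus MC38, log2 0.82) was close in size to that of the receptor chain Il10rb (log2 -0.81). Jak2 was at 54.2 ± 2.54 CPM in CT26, 36.9 ± 2.46 in MC38 and 13.8 ± 0.176 in E0771, here on library sizes scaled over all 14 libraries. It was 3.94-fold higher in CT26 than in E0771 (log2 1.98, SE 0.11, adjusted p = 2.74e-09 by edgeR's quasi-likelihood test), 1.47-fold higher in CT26 than in MC38 (adjusted p = 0.000163) and 2.68-fold lower in E0771 than in MC38 (log2 -1.42, adjusted p = 2.42e-07). Jak1 had another order, with 236 ± 0.147 CPM in E0771, 190 ± 3.77 in MC38 and 119 ± 8.69 in CT26. Its level in CT26 was 1.98-fold below that in E0771 (log2 -0.98, adjusted p = 2.48e-08) and 1.59-fold below that in MC38 (adjusted p = 1.01e-06). Tyk2, the kinase of IFNAR1 and IL10RB, was at 26.7 ± 4.29 CPM in E0771, above 18.1 ± 1.5 in CT26 (adjusted p = 0.000577) and 15.1 ± 0.941 in MC38 (adjusted p = 9.86e-05). CT26 and MC38 did not differ beyond the threshold in Tyk2 (log2 0.26, SE 0.12, adjusted p = 0.0631), and did without CT26 control replicate 3 (adjusted p = 0.0326).

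Among the receptor chains, the widest gap between lines was that of Il10rb, at 21.3 ± 0.870 CPM in MC38, 16.3 ± 1.26 in CT26 and 12.1 ± 0.246 in E0771 (E0771 minus MC38, log2 -0.81, SE 0.11, adjusted p = 3.26e-05 by edgeR). Ifngr1 was higher in MC38 (40.2 ± 0.104 CPM) than in CT26 (29.2 ± 3.07, adjusted p = 0.00153) and E0771 (28.0 ± 3.46, adjusted p = 0.00204), and its partner Ifngr2 was lower there, at 13.7 ± 1.18 CPM against 21.4 ± 0.337 in CT26 (adjusted p = 1.34e-05) and 20.2 ± 0.377 in E0771 (adjusted p = 0.000185). CT26 and E0771 did not differ beyond the threshold in Ifngr1 (adjusted p = 0.633) or Ifngr2 (adjusted p = 0.363). Ifnar2 was at 26.7 ± 1.69 CPM in CT26, 21.5 ± 1.20 in E0771 and 17.2 ± 0.0851 in MC38, and Ifnar1 at 42.0 ± 0.437, 42.4 ± 0.366 and 36.1 ± 1.88. Ifnar1 did not differ beyond the threshold between CT26 and E0771 (adjusted p = 0.868). In all, 5 of 8 genes were called between CT26 and E0771, where 70.3% of all 14657 genes tested were, 7 of 8 between CT26 and MC38 (73.6% of all) and 8 of 8 between E0771 and MC38 (64.1% of all), so shares like these were usual for any gene. Each line had a table of its own. CT26 differs from the others in strain and in how its columns are named, and these cannot be told apart from the line. E0771 and MC38 share a strain and a prefix of their column names but differ in tumour origin and medium, which cannot be told apart either. The smaller gaps of Ifnar1 and Ifnar2 did not all hold when a library was left out: Ifnar1 was not called between CT26 and MC38 without MC38 control replicate 1 (adjusted p = 0.130), and Ifnar2 was not called between CT26 and E0771 without E0771 control replicate 1 (adjusted p = 0.0680). Between E0771 and MC38, Ifnar1 was not called without E0771 control replicate 1 or 2 or MC38 control replicate 1 (adjusted p = 0.0698, 0.0509 and 0.147), nor by DESeq2 (adjusted p = 0.0525), and Ifnar2 was not called without E0771 control replicate 2 or MC38 control replicate 1 or 2 (adjusted p = 0.0864, 0.0634 and 0.0573).

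The RIG-I agonist was followed by small changes in some of these genes and by none past the threshold in others. Jak2 rose in CT26 and MC38, Ifnar2 rose and Ifnar1 fell in CT26, and Ifngr2 rose and Ifngr1 fell in MC38. In CT26, 2 of the 8 tested genes rose and 1 fell, where 38.4% of all 13893 genes tested were called (19.8% rose and 18.6% fell). In MC38, 2 rose and 1 fell, where 35.8% of 12387 genes were called (18.9% rose and 16.9% fell). In E0771 none of the 8 was called by edgeR, against 1.56% of 11728 genes (1.53% rose and 0.0256% fell). There 2 of the 8, Ifngr2 and Jak2, had an unadjusted p under 0.05, as did 1242 of the 11728 genes. DESeq2 called 1 of the 8, Ifngr2, where it called 418 of all genes. The median log2 fold change of the 8 genes was 0.07 for CT26, 0.20 for E0771 and 0.07 for MC38, while that of all genes tested lay between -0.01 and 0.00. Groups did not overlap for 4 of 8 genes in CT26 (51.4% of all genes), 5 of 8 in E0771 (40.3%) and 7 of 8 in MC38 (67.2%).

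**Figure D2:**
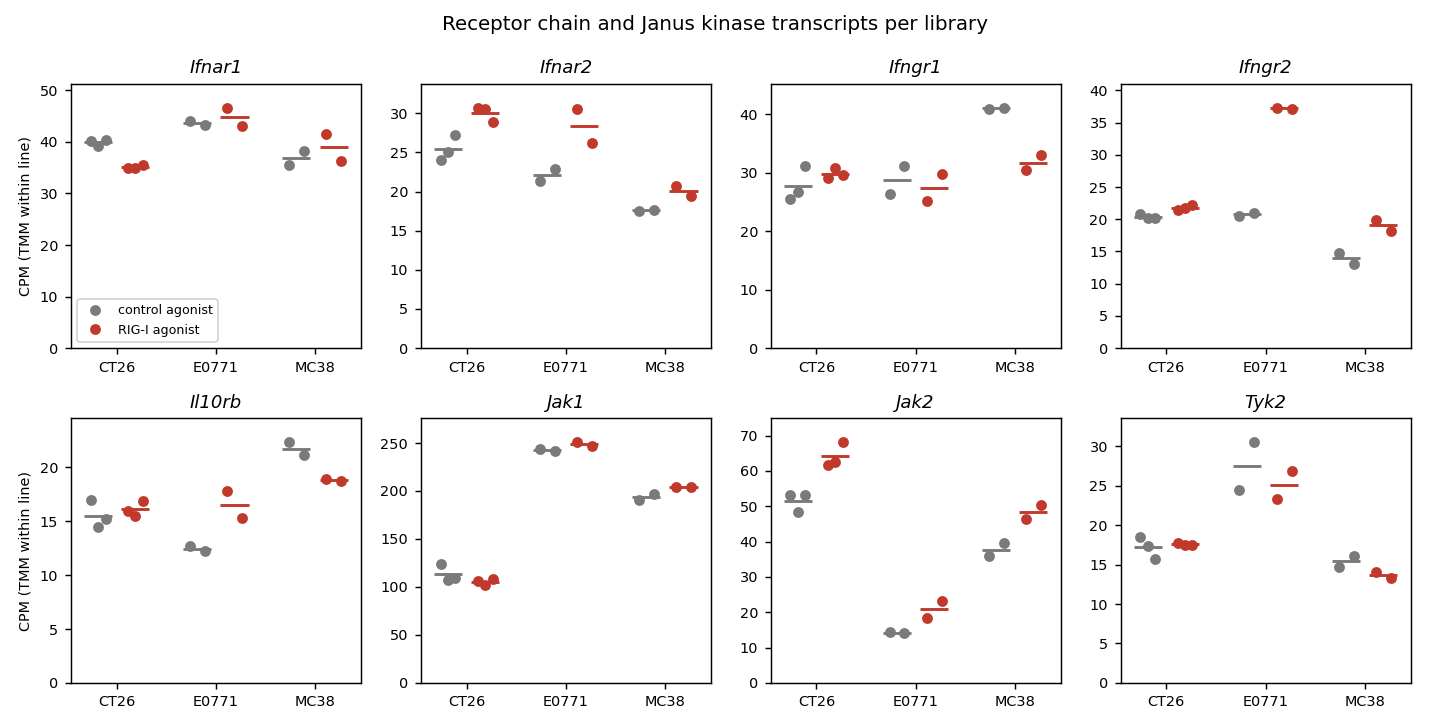
CPM in every library (points) and group means (bars), scaled within each line, for the 8 genes that passed the filter, with control agonist in grey and RIG-I agonist in red. Ifngr2 in E0771 moves from 20.6 and 21 to 37.1 and 37.3, and Jak2 lies above the control libraries in all 3 lines.

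Ifngr2, the signalling chain of the interferon gamma receptor, had the largest fold change of the 8 genes, in E0771. Its libraries were at 20.6 and 21 CPM with control agonist and at 37.3 and 37.1 with RIG-I agonist. The groups lay far apart relative to their own spread, with a 1.79-fold difference (log2 0.84, SE 0.14), but with the spread that edgeR estimated across genes in E0771 it was not called (adjusted p = 0.0757, unadjusted p = 0.00152). It was called by DESeq2 (adjusted p = 0.0116) and by edgeR without a filter on low counts (adjusted p = 0.0458). So it was by edgeR with same-numbered libraries taken as a block (adjusted p = 8.51e-05) and with 1 spread shared by all 14 libraries (adjusted p = 3.79e-05). These settings also raised the calls over all genes in E0771, from 183 to 418, 286, 2458 and 1588. In all, 4 of 9 alternatives called Ifngr2 there. In MC38, Ifngr2 was at 14.8 and 13.1 CPM and at 19.9 and 18.1, a 1.35-fold rise (log2 0.43, SE 0.10, adjusted p = 0.00217), which DESeq2 did not call (adjusted p = 0.0707). In CT26 it was at 20.8, 20.2 and 20.2 CPM and at 21.4, 21.7 and 22.3. Those groups did not overlap, but the difference of 1.07-fold was not called (log2 0.10, SE 0.06, adjusted p = 0.256).

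The response of Ifngr2 differed between CT26 and E0771. The interaction, tested in 1 edgeR fit of all 14 libraries, was -0.78 on the log2 scale (CT26 minus E0771, SE 0.12, adjusted p = 0.00179), and it was the only one called among the 8 genes in that comparison, against 3.88% of 14657 genes. It was called under all 14 alternatives tried (adjusted p from 1.16e-06 to 0.00850). Each of those fits shared its spread over the lines, so none could show whether the call holds with the spread of E0771 alone. Between CT26 and MC38 the difference was -0.40 (adjusted p = 0.0832), and between E0771 and MC38 it was 0.39 (adjusted p = 0.204). None of the 8 genes was called between CT26 and MC38 by edgeR, where 3.80% of all genes were, or between E0771 and MC38, where 2.11% were. In the first of these comparisons 4 of the 8 had an unadjusted p under 0.05, as did 2754 of all 14657 genes. In the second 2 of the 8 did, as did 1850 of the 14657. DESeq2 called 0 of the 8 in both, where it called 977 of all genes in the first and 510 in the second.

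Ifngr1, the other chain of that receptor, did not rise with Ifngr2. In MC38 it fell from 40.9 and 41.2 CPM to 30.4 and 33.0, 1.29-fold (log2 -0.36, SE 0.07, adjusted p = 0.000329), with no overlap. This call was lost with 1 spread shared by all 14 libraries (adjusted p = 0.0937). In E0771 the libraries were at 26.4 and 31.2 CPM and at 25.1 and 29.8, which overlapped (log2 -0.07, SE 0.17, adjusted p = 0.937). In CT26 they were at 25.5, 26.7 and 31.2 CPM and at 29.1, 30.9 and 29.6, which overlapped too (log2 0.10, SE 0.08, adjusted p = 0.327). Without CT26 control replicate 3, the highest of its group, Ifngr1 was called higher in CT26 (log2 0.18, adjusted p = 0.0408).

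**Figure D3:**
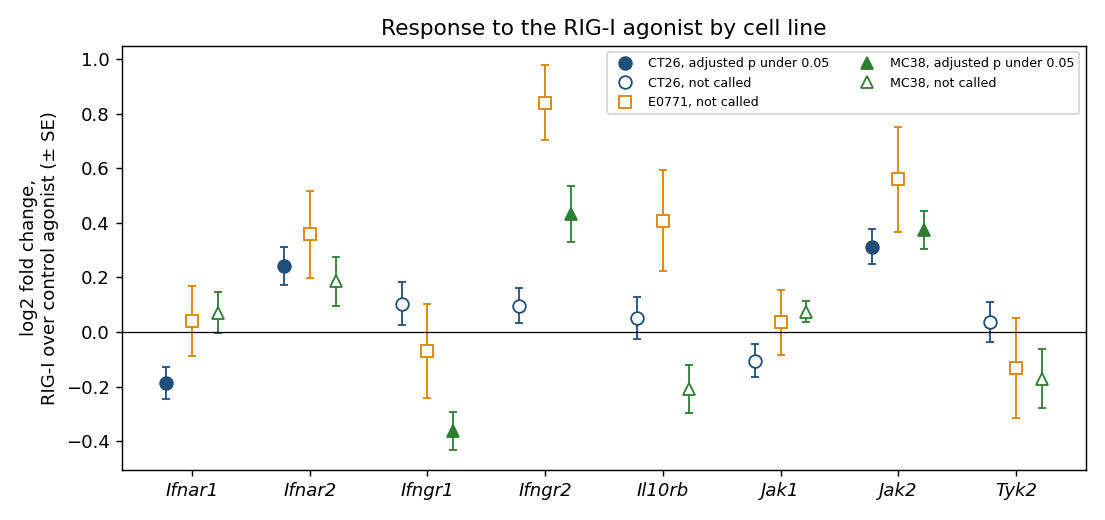
Log2 fold change of RIG-I over control agonist, with its standard error, for 8 genes in CT26 (circles), E0771 (squares) and MC38 (triangles). Filled symbols passed an adjusted p of 0.05, and no E0771 symbol is filled although Ifngr2 is at 0.84 there.

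The type I receptor chains moved apart in CT26. Ifnar1 went from 40.2, 39.2 and 40.5 CPM to 34.9, 34.9 and 35.5, a fall of 1.14-fold with no overlap (log2 -0.19, SE 0.06, adjusted p = 0.0224). Ifnar2 went from 24.0, 25.1 and 27.2 CPM to 30.7, 30.6 and 28.9, a rise of 1.18-fold with no overlap (log2 0.24, SE 0.07, adjusted p = 0.0151). Both calls were near the threshold. That of Ifnar1 was lost without CT26 RIG-I replicate 1, 2 or 3 (adjusted p = 0.0937, 0.0804 and 0.0664). That of Ifnar2 was lost without control replicate 2 or RIG-I replicate 1 or 2 (adjusted p = 0.0594, 0.0711 and 0.0684), and with 1 spread shared by all libraries (adjusted p = 0.0889).

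In E0771, Ifnar2 was at 21.3 and 22.9 CPM with control and 30.5 and 26.2 with RIG-I agonist (log2 0.36, SE 0.16, adjusted p = 0.536). In MC38 it was at 17.5 and 17.7 and at 20.7 and 19.5 CPM (log2 0.19, SE 0.09, adjusted p = 0.121). The RIG-I libraries were thus the higher ones in all 3 lines, with a call in CT26 alone where each line was fitted by itself. With 1 spread shared by all 14 libraries, the call was in E0771 (log2 0.35, adjusted p = 0.0456) and no longer in CT26. The difference of this effect between lines was not past the threshold in any pair of lines (CT26 minus E0771 -0.16, adjusted p = 0.616; CT26 minus MC38 0.00, adjusted p = 1.0; E0771 minus MC38 0.16, adjusted p = 0.730). Ifnar1 overlapped between agonists in E0771 (44.1 and 43.2 CPM, then 46.6 and 43.2, adjusted p = 0.951) and in MC38 (35.5 and 38.2 CPM, then 41.6 and 36.3, adjusted p = 0.503). Its effect in CT26 differed from that in E0771 by -0.27 (adjusted p = 0.206) and from that in MC38 by -0.32 (adjusted p = 0.114), neither past the threshold.

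The ratio of partner chains within a library does not depend on how libraries are scaled against each other. It was computed after the data were seen, from counts per kilobase. The ratio of Ifnar2 to Ifnar1 in CT26 was 1.07, 1.14 and 1.20 with control agonist and 1.57, 1.56 and 1.45 with RIG-I agonist, 1.35-fold higher on average. In E0771 it was 0.866 and 0.946 and then 1.17 and 1.08 (1.24-fold), and in MC38 0.880 and 0.825 and then 0.887 and 0.954 (1.08-fold). The ratio of Ifngr2 to Ifngr1 was 0.589 and 0.506 and then 1.12 and 0.942 in E0771 (1.88-fold), and 0.274 and 0.241 and then 0.495 and 0.415 in MC38 (1.77-fold). In CT26 it was 0.616, 0.572 and 0.489 and then 0.556, 0.532 and 0.568, with overlapping groups. Of the 12 ratio comparisons made (4 ratios in 3 lines), the groups overlapped only in this last one. The ratios reuse genes whose values are given above, and the share for ratios of other genes was not computed. For single genes the groups did not overlap in 51.4% of all genes in CT26, 40.3% in E0771 and 67.2% in MC38. A two-sided exact permutation test cannot go below p = 0.100 with 3 libraries against 3, or 0.333 with 2 against 2. The exact p was 0.100 for Ifnar2 to Ifnar1 and 0.90 for Ifngr2 to Ifngr1 in CT26 (0.364 and 0.90 adjusted over the 12), and 0.333 for both ratios in E0771 and MC38 (0.364 adjusted).

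**Figure D4:**
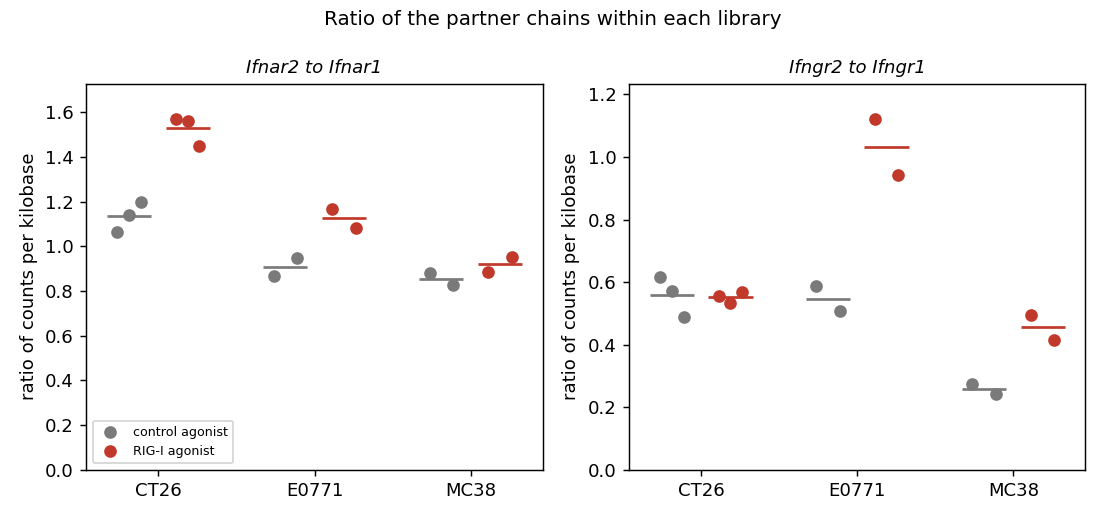
Ratio of counts per kilobase of the partner chains in each library (points) with group means (bars), control agonist in grey and RIG-I agonist in red. Ifnar2 to Ifnar1 is highest in the CT26 RIG-I libraries (1.45 to 1.57), and Ifngr2 to Ifngr1 is higher with RIG-I agonist in E0771 and MC38 but not in CT26.

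Il10rb, the chain common to the interferon lambda, interleukin 10 and interleukin 22 receptors, was not called in any line fitted by itself. In E0771 it was at 12.7 and 12.2 CPM with control and 17.8 and 15.3 with RIG-I agonist (log2 0.41, SE 0.18, adjusted p = 0.542), a difference that was called with 1 spread shared by all libraries (adjusted p = 0.0434). In MC38 it was at 22.3 and 21.1 and then 19.0 and 18.7 (log2 -0.21, SE 0.09, adjusted p = 0.0685). The groups were apart in both lines, upward in E0771 and downward in MC38. The difference between these effects was 0.60 on the log2 scale and missed the threshold (adjusted p = 0.0819). It was called without E0771 RIG-I replicate 2 (log2 0.68, adjusted p = 0.0433). In CT26 the libraries overlapped, at 16.9, 14.4 and 15.2 and then 15.9, 15.5 and 16.9 CPM (adjusted p = 0.626).

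Of the 3 kinases, only Jak2 was called, in CT26 and MC38. Jak2, which pairs with IFNGR2 and with many other cytokine receptors, went from 53.2, 48.4 and 53.1 CPM to 61.7, 62.5 and 68.0 in CT26, a rise of 1.24-fold with no overlap (log2 0.31, SE 0.07, adjusted p = 0.00200). It was called in CT26 under all 11 alternatives (adjusted p at most 0.0324). In MC38 it went from 35.8 and 39.5 to 46.5 and 50.4 CPM, 1.30-fold (log2 0.38, SE 0.07, adjusted p = 0.000217), with the call lost where all 14 libraries shared 1 spread (adjusted p = 0.0570). In E0771 the libraries were at 14.3 and 14 and then 18.4 and 23.3 CPM, also with no overlap. The larger fold of 1.47 there was not called (log2 0.56, SE 0.19, adjusted p = 0.401). It was called with 1 spread shared by all 14 libraries (log2 0.55, adjusted p = 0.0101) and with same-numbered libraries taken as a block (adjusted p = 0.0130). The effect did not differ past the threshold between any pair of lines (adjusted p = 0.354 for CT26 minus E0771, 0.732 for CT26 minus MC38 and 0.716 for E0771 minus MC38).

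Jak1 stayed within a narrow range. Its libraries were at 123, 108 and 109 CPM and then 106, 102 and 108 in CT26 (log2 -0.10, SE 0.06, adjusted p = 0.195). They were at 244 and 242 and then 251 and 247 in E0771 (log2 0.04, SE 0.12, adjusted p = 0.952). In MC38 they were at 191 and 197 and then 204 and 204 (log2 0.08, SE 0.04, adjusted p = 0.127). Tyk2 overlapped between agonists in CT26 (18.5, 17.3 and 15.7 CPM, then 17.8, 17.5 and 17.5, adjusted p = 0.731) and in E0771 (24.4 and 30.5, then 23.3 and 26.8, adjusted p = 0.878). In MC38 it was at 14.7 and 16.1 and then 14.1 and 13.4 CPM, apart but not called (log2 -0.17, SE 0.11, adjusted p = 0.230). The ratio of Jak2 to Tyk2 per kilobase averaged 4.12 and 4.96 in CT26, 0.712 and 1.13 in E0771, and 3.33 and 4.82 in MC38, with control and RIG-I agonist. The ratio of Jak2 to Jak1 averaged 0.655 and 0.873 in CT26, 0.0838 and 0.121 in E0771, and 0.279 and 0.341 in MC38. In all 6 of these comparisons the RIG-I libraries were the higher ones. All 6 share Jak2, whose RIG-I libraries were the higher ones in every line, so they are not 6 separate observations. The exact permutation p was 0.100 in CT26 and 0.333 in E0771 and MC38. Those are the smallest values these designs can give, so the test could not reach the threshold.

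Jak2 lies 54374 bases from Cd274, the gene of PD-L1, on chromosome 19, a neighbour named here after its values were seen. In CT26 Cd274 rose by 3.07 on the log2 scale where Jak2 rose by 0.31, and in MC38 by 1.5 where Jak2 rose by 0.38. In E0771 Cd274 rose by 3.14 (adjusted p = 0.0167), while Jak2 was at 0.56 without a call.

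Of the tested neighbours of the chromosome 16 cluster, 2 of 8 were called in CT26 and 4 of 7 in MC38, where 38.4% and 35.8% of all genes were, and 0 of 7 in E0771 (1.56% of all). Besides the 4 receptor genes, 11 protein-coding genes lay within 200 kb of it. In CT26, 8 were tested, none rose and 2 fell, with a median log2 fold change of -0.09. Those 2 were Tmem50b, a membrane protein gene next to Ifngr2, at -0.32 (adjusted p = 0.00339) and Cryzl1 at -0.30 (adjusted p = 0.00290). In MC38, 7 were tested, of which 1, the purine synthesis gene Gart, rose (0.12, adjusted p = 0.0105) and 3, Tmem50b (-0.40), Donson (-0.27) and Son (-0.09), fell. In E0771 none of the 7 tested was called by edgeR, and Tmem50b was at 13.4 ± 0.233 and 10.5 ± 4.54 CPM. Olig1 and Olig2, next to Ifnar2, had no counts in any line.

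Downstream of the kinases, some transcripts moved more than those of the receptors did. Stat2 encodes a transcription factor that the type I receptor activates, and Irf9 its DNA-binding partner. In CT26, Stat2 rose by 2.22 on the log2 scale, from 65.9 ± 7.93 to 308 ± 11 CPM, Stat3 by 0.86 and Irf9 by 0.83. In E0771, Stat2 rose by 3.14 (adjusted p = 0.0167), while Irf9 was at 34.4 ± 10.3 and 76.3 ± 2.53 CPM without a call (adjusted p = 0.133). In MC38, Stat2 rose by 1.12, Irf9 by 0.36 and Stat3 by 0.30, and Stat5a (-0.21) and Stat5b (-0.20) fell.

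Inhibitors that act on the receptors and kinases also rose in part. Usp18, whose product binds IFNAR2 and blocks JAK1 there, rose by 2.15 in CT26, from 178 ± 16.9 to 794 ± 27.2 CPM, by 5.0 in E0771, from 21.2 ± 10.2 to 679 ± 99.2 CPM, and by 1.78 in MC38, from 97.3 ± 3.81 to 336 ± 9.15 CPM. Socs1, a direct inhibitor of Janus kinases, rose by 1.22 in CT26 and by 0.85 in MC38. Of 13 inhibitor genes tested in CT26, 4 rose, with Cish (1.89) and Socs3 (0.54) among them, and 3 fell: the phosphatase genes Ptpn6 (-0.51) and Ptpn11 (-0.19), and Pias2 (-0.29). In E0771, 1 of 11 rose. In MC38, 4 of 12 rose, including the phosphatase genes Ptpn2 (0.26) and Ptpn11 (0.14), and 1, Pias3 (-0.54), fell. The medians were 0.09, 0.14 and 0.06 in the order CT26, E0771 and MC38. Of all genes tested, 19.8% rose and 18.6% fell in CT26, 1.53% rose in E0771, and 18.9% rose and 16.9% fell in MC38.

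Genes of receptor turnover were called in some cases, where 38.4% of all genes were called in CT26, 1.56% in E0771 and 35.8% in MC38. Of 12 identifiers tested in each line, 2 rose and 2 fell in CT26, none was called in E0771 and 3 rose in MC38, with medians of -0.02, 0.11 and 0.09. Prkd2, a kinase that marks IFNAR1 for removal from the surface, rose by 0.72 in CT26, from 7.87 ± 0.841 to 13.0 ± 0.622 CPM, while Csnk1a1 (-0.16) and Shmt2 (-0.27) fell there. In MC38 Shmt2 rose by 0.21 and Fbxw11, a ubiquitin ligase subunit gene, by 0.20. The remaining riser in CT26 and in MC38 was 1 of the 2 identifiers of Hgs, whose product sorts receptors in endosomes.

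Other cytokine receptor chains that use Janus kinases changed in their own ways. Among 24 of them, with Jak3, 7 of 13 tested rose and 1 fell in CT26, and 2 of 12 rose in E0771. In MC38, 4 of 14 rose and 3 fell (medians 0.50, 0.51 and 0.05 in the order CT26, E0771 and MC38). Over all genes tested, 19.8% rose and 18.6% fell in CT26, 1.53% rose in E0771, and 18.9% rose and 16.9% fell in MC38. Il15ra, which presents interleukin 15, rose by 3.46 in CT26 from 0.0871 ± 0.0533 CPM, by 1.89 in E0771 and by 0.69 in MC38. Osmr, the oncostatin M receptor gene, rose by 1.62 in CT26, 1.48 in E0771 and 0.25 in MC38, and Il13ra1 by 2.10 in CT26 and 0.38 in MC38. Il6st, the gp130 chain of the interleukin 6 family, fell by 0.18 in CT26 and rose by 0.18 in MC38. F3, tissue factor, a relative of the interferon receptor chains, rose by 0.90 in CT26 and 0.28 in MC38 and was at 36.2 ± 0.432 and 49.3 ± 0.165 CPM in E0771 (adjusted p = 0.295).

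The ligands of these receptors differed in amount between the lines. The summed level of 12 interferon, interleukin 10 and interleukin 22 genes was 129 to 136 CPM in the CT26 libraries with RIG-I agonist, 18.5 to 20.2 in E0771 and 4.72 to 4.94 in MC38, and at most 0.286, 0.156 and 0.257 CPM with control agonist. Ifng, the ligand of the receptor in which Ifngr2 was higher, had no counts in CT26 or MC38 and 1 in an E0771 control library.

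Across the 14 libraries, with each line's mean subtracted, log2 CPM of Ifngr2 and Jak2 had a Pearson r of 0.81, Ifngr2 and Ifnar2 0.78, Jak2 and Ifnar2 0.70, and Ifnar1 and Jak1 0.72. These describe libraries that share line and agonist, and carry no test. Among 13319 other protein-coding genes, those most like Ifngr2 were Tmem192 (r = 0.96), the death receptor gene Fas (0.96) and Unc45b (0.96). Those most like Jak2 were Clec2d (0.96), Abi3bp (0.96) and Plag1 (0.96), and those most like Ifnar2 were Casp8, the initiator caspase of death receptors (0.95), Lsg1 (0.94) and Ifrd1 (0.94).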

How the data were processed

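Stranded poly(A)-selected RNA libraries, 14 in 6 groups, were sequenced. For each line the authors deposited a table of unnormalized estimated counts by gene identifier. GRCm38, DESeq2 and Salmon stand in the submitters' processing notes without roles; versions and annotation are not given in the sources used here. Columns were matched to samples by title or by the column name in the labels. Estimated counts were rounded to whole numbers. Of 34866 identifiers, 34582 matched GENCODE M21 (GRCm38) without version and 284 did not.

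RIG-I and control agonist were compared within each line by edgeR 4.0.16 (R 4.3.3), with a robust quasi-likelihood fit, TMM, filterByExpr (minimum count 10) and p-values adjusted by Benjamini-Hochberg across every gene tested. Differences between lines came from 1 fit of 14 libraries with 6 groups. Within-line CPM and 14-library CPM differ by factors of 1.05 (CT26), 0.969 (E0771) and 0.981 (MC38). DESeq2 1.42.0 was an alternative, with DESeq2 size factors, no filter, each library left out, a replicate block and 1 joint fit. The fits were run on simulated data that had the same spread for every gene and line. The spread of the real libraries differed between lines, so that run does not show how reliable the calls in E0771 are. The members and lists were chosen with earlier results of these data known. All 9 genes were named. From each list, at most 6 called genes with the largest change were eligible to be named, and values of others were given where a comparison needed them. Neighbours were all protein-coding genes within 200 kb, and likeness took the 3 highest correlations (prior count 2). Floors cover counting error only, while ± values are SDs between libraries and each SE comes from the fit. Some results of the lists are not reported here.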

Additional observations from a re-analysis of the deposited data

Results flagged for a closer look

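The effect of the RIG-I agonist on Ifngr2, the signalling chain of the interferon gamma receptor, differed between CT26 and E0771 by a test of the difference itself. The difference was -0.78 on the log2 scale (CT26 minus E0771, SE 0.12, adjusted p = 0.00179, edgeR). That fit shared 1 spread over the 3 lines. With the spread of E0771 alone, the effect on Ifngr2 there was not called by edgeR (adjusted p = 0.0757). Ifngr2 was at 20.6 and 21 CPM with control and 37.3 and 37.1 with RIG-I agonist in E0771, and at 20.2 to 20.8 and 21.4 to 22.3 CPM in CT26. Groups of 2 or 3 libraries were too small for a search for outlying libraries.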

How the results depend on the processing

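With DESeq2 size factors, every count of called genes among the 8 was as in the edgeR fits. The E0771 count of 0 became 1 with the DESeq2 test, 1 with no filter, 2 with the replicate block (Ifngr2, and Jak2 at adjusted p = 0.0130) and 4 in 1 fit of all libraries (Ifnar2, Ifngr2, Il10rb and Jak2), and the MC38 count of 3 became 1 in that fit. With the replicate block the count for CT26 minus MC38 went from 0 to 2 (Ifngr1 and Ifngr2) and for E0771 minus MC38 from 0 to 1 (Il10rb). Same-numbered libraries correlated at 0.0924, 0.0842 and 0.262 in CT26, 0.639 in E0771 and -0.0179 in MC38. Column names carry matching numbers in both agonists, but no label says that these mark a shared culture. The numbers were therefore not taken as pairs in the main fits. Leaving out 1 CT26 library gave 1 to 4 called genes for CT26, where 3863 to 5907 of all genes were called. For E0771, MC38 and the comparisons between lines, leaving out 1 library can leave a group with only 1. Those counts among the 8 genes are not given.

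Over all genes, E0771 calls went from 183 to 418 (DESeq2), 286 (no filter), 2458 (block) and 1588 (1 fit). MC38 calls went from 4437 to 2256 (DESeq2) and 998 (1 fit), and CT26 calls from 5334 to 3503 (1 fit). Interaction calls went from 568 to 1537 (block) for CT26 minus E0771, from 557 to 977 (DESeq2) and 1816 (block) for CT26 minus MC38, and from 309 to 510 (DESeq2) and 880 (block) for E0771 minus MC38. Without single libraries the interaction calls ranged from 349 to 863, 167 to 506 and 166 to 477. The cause was not tested. No called difference of the 8 genes changed sign under these alternatives. Replicates differed by a chi-square per degree of freedom of 37.0 to 40.9 in E0771, 16.2 to 18.3 in CT26 and 2.20 to 2.36 in MC38, and the 1 fit shares its spread over all of them.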
